A study of Mus musculus with 160 samples.

Results

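The nuclear genes of oxidative phosphorylation were taken as the genes whose symbol names a subunit of respiratory complexes I to IV, cytochrome c or the ATP synthase. The symbols were those beginning Nduf with a subunit letter and number, Sdha to Sdhd, Uqcr, Cyc1, Cycs, Cox4 to Cox8 with a letter, and Atp5, without names ending in -ps. The rule took 90 of the 43432 genes in the tables. They comprise 40 genes of complex I, 4 of complex II, 9 of complex III, 1 of cytochrome c, 19 of complex IV and 17 of complex V. The choice used symbols alone and no measured value. A further 6 symbols with -ps were left out, and Ndufab1, the acyl carrier subunit of complex I, was not reached by the rule.

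The respiratory chain passes electrons from NADH (complex I) and succinate (complex II) through complex III and cytochrome c to oxygen at complex IV, and complex V makes ATP from the resulting proton gradient. Most subunits are encoded in the nucleus and a small core in mitochondrial DNA, so that both genomes must be expressed for assembly. Heart and oxidative muscle carry the most respiratory chain, and in Huntington's disease models the striatum has long been studied for defects of energy metabolism.

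RNA-seq was made from heart, tibialis muscle, liver, striatum and cortex of 32 mice on the C57BL/6J strain, and every animal gave all 5 tissues. The 3 arms of heterozygous Q175 mice, which carry an expanded CAG repeat in a knock-in Htt allele, received vehicle, or CHDI-00390576 at 30 mg/kg, or the same compound at 100 mg/kg. The fourth arm held wild-type (WT) mice on vehicle, and no WT arm received the compound. CHDI-00390576 is described by the study as an inhibitor of class IIa histone deacetylases, and it was given by mouth b.i.d. beginning at 4 weeks of age until tissue was taken at 6 months. Each arm held 4 females and 4 males, so each tissue has 32 libraries and each group 8. The replicates are separate animals.

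The 160 libraries held between 29.8 M and 44.9 M counts, of which the 90 genes took between 0.596% and 4.48%. Each tissue carried its own defining markers. The summed level of 10 heart genes had a median of 27250 FPKM, a level scaled by gene length and library size, in WT heart and at most 42.0 FPKM in any other WT tissue. The 8 striatal genes had 1801 FPKM in WT striatum and 184 FPKM in WT cortex, and the 6 cortical genes had 359 FPKM in WT striatum and 805 FPKM in WT cortex. Several libraries also carried RNA of another tissue. Tibialis genes stood at 26.8% and 6.22% of their tibialis level in cortex libraries F4 and M3 of the 30 mg/kg arm. Brain genes stood at 12.4% in tibialis library M1 of the 100 mg/kg arm, and at 12.6% and 6.72% in WT tibialis libraries F3 and M4. WT liver library F4 held tibialis genes at 0.534%. In bulk tissue, fewer cells of a type and less RNA per cell cannot be told apart.

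Promoter sequences are shown for the gene pairs that separate muscle from other tissues most sharply, the alternative forms of 3 nuclear subunits of complex IV (cytochrome c oxidase). Cox7a1 and Cox8b are muscle forms, and Cox6a1, Cox7a2 and Cox8a are the forms used in most tissues. The promoter of Cox6a2, the muscle form paired with Cox6a1, is not shown. The 250 bases before the annotated start were read from RefSeq promoters of build GRCm38.p6. They lie at chr7:30183921-30184170 (plus strand, Cox7a1), chr7:140900447-140900696 (minus, Cox8b), chr5:115348959-115349208 (minus, Cox6a1), chr9:79759854-79760103 (minus, Cox7a2) and chr19:7217617-7217866 (minus, Cox8a). Capitals mark letters of the NRF1 and ETS motifs named after the sequences.
Cox7a1: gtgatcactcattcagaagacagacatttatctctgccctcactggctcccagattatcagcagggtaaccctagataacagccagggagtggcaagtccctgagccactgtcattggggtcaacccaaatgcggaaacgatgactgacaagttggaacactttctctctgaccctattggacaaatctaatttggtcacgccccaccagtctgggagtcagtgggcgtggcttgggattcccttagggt
Cox8b: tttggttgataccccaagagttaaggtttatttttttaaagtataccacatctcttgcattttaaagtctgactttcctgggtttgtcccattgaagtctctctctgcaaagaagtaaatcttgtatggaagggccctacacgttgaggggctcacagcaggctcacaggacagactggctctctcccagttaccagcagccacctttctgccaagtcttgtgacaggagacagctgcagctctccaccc
Cox6a1: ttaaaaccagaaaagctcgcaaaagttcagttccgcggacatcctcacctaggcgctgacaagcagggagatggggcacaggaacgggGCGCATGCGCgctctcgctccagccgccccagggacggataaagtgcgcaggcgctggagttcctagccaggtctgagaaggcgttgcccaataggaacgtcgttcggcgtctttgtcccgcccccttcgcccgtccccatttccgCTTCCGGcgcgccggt
Cox7a2: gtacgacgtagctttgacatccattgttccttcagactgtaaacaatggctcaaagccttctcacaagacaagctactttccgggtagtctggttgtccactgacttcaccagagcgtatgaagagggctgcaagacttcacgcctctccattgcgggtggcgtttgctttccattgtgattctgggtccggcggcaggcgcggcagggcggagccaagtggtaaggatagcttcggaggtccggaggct
Cox8a: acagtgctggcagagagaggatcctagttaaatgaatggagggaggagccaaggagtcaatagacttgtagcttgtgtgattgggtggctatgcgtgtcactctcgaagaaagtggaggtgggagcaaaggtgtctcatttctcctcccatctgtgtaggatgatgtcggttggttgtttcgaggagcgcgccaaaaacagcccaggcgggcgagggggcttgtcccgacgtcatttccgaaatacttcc

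The muscle promoters shown, without that of Cox6a2, held 4 (Cox7a1) and 1 (Cox8b) CpG dinucleotides. The promoters of the widely used forms held 26 (Cox6a1), 14 (Cox7a2) and 11 (Cox8a). The GC content was 51.2% and 47.2% in the muscle promoters shown, against 62.8%, 54.8% and 52.8%. Within these 250 bases only the Cox6a1 stretch held whole searched motifs. They were a pair of overlapping NRF1 matches starting 162 and 160 bases before the start and an ETS match at 16 bases. The Cox8a promoter also had an ETS match in the longer window searched below, which did not lie wholly within the 250 bases shown. NRF1 and the ETS factor GABPA are known regulators of respiratory genes.

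Promoters were in the table for 67 of the 90 genes, 72 promoters in all. Letters were searched on both strands over 250 bases before and 50 after the start. The NRF1 letters GCGCATGC were in 11 of the 72 promoters (15.3%), against 2.71% of all 32851 promoters in the table. The ETS letters CCGGAAG were in 16 (22.2%) against 8.86%, and the YY1 letters AAGATGGC in 9 (12.5%) against 2.75%. The oestrogen-related receptor letters TCAAGGTCA were in 2 (2.78%), those of Atp5g3 and Sdhd, against 0.423%. The MEF2 consensus was in 0 of 72 against 3.19% of all promoters. A match describes the letters only.

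The 90 genes were expressed in the order heart, tibialis, liver and brain. Their summed level in WT mice was 40820 ± 2986 FPKM in heart, 23970 ± 4267 FPKM in tibialis, 12340 ± 1834 FPKM in liver, 8195 ± 928 FPKM in striatum and 8902 ± 2034 FPKM in cortex (SD, n = 8 each). The libraries of heart lay above those of tibialis, and those of tibialis above those of liver. Striatum and cortex overlapped, and the highest WT cortex library (12950 FPKM) lay within the liver range of 11280 to 16740 FPKM. As a share of all counts, the genes had a WT median of 3.67% in heart, 2.17% in tibialis, 1.03% in liver, 0.739% in striatum and 0.732% in cortex. Of the 81 genes kept by the filter on low counts in all 5 tissues, 69 had their highest mean FPKM in heart, 9 in tibialis, 1 in liver and 2 in cortex. The lowest mean was in striatum for 56, in liver for 14, in cortex for 9 and in tibialis for 2.

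**Figure D1:**
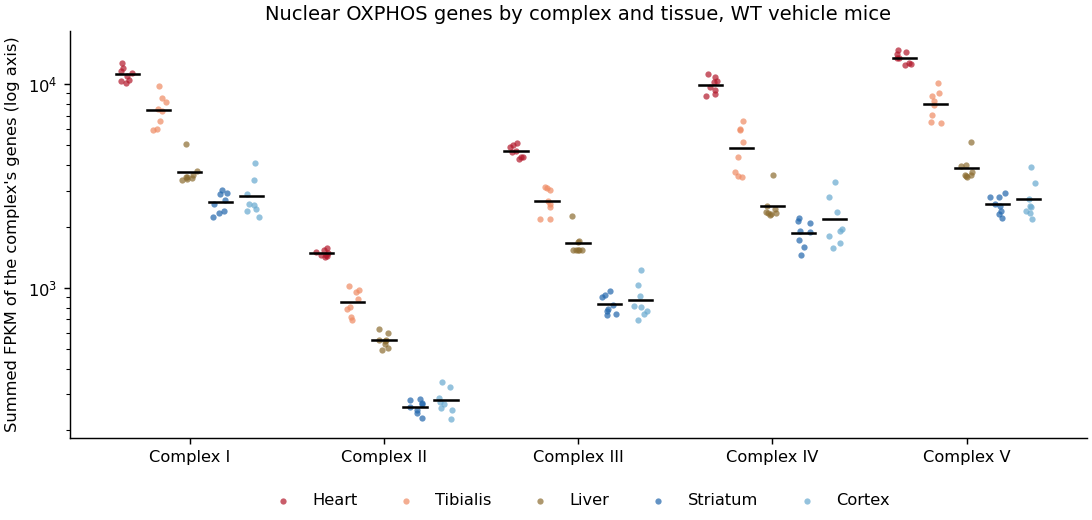
Summed FPKM of each complex's nuclear genes in the 8 WT libraries of each tissue, on a log axis. Points are libraries and bars are means. Every complex stands highest in heart, as with complex II at a mean of 1481 FPKM in heart, 261 FPKM in striatum and 280 FPKM in cortex.

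Complex I, the NADH dehydrogenase and entry point of most electrons, summed to 11200 ± 874 FPKM in WT heart and 2634 ± 298 FPKM in WT striatum. Its most abundant member in all 5 tissues was Ndufa4, with a mean of 1212, 977, 494, 368 and 424 FPKM in heart, tibialis, liver, striatum and cortex. Its protein was first assigned to complex I and is now placed in complex IV. Ndufa4l2, a relative that hypoxia induces in cultured cells, was lowest among the genes kept, at 8.70 FPKM in heart and 0.547 FPKM in striatum. Ndufs1, the large iron-sulphur subunit, ranged over 232 to 277 FPKM in WT heart and 73.5 to 86.9 FPKM in WT striatum. It was lower in liver than in either brain tissue, at 45.7 ± 2.84 FPKM (SD, n = 8).

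Complex II, the succinate dehydrogenase, is the only complex with no mitochondrially encoded subunit. Its 4 genes summed to 1481 ± 51.6 FPKM in WT heart, 855 ± 120 FPKM in tibialis, 552 ± 44.4 FPKM in liver, 261 ± 19.1 FPKM in striatum and 280 ± 39.9 FPKM in cortex. Sdhb, the iron-sulphur subunit, led in heart at 518 FPKM, and Sdha, the flavoprotein, led elsewhere, at 301 FPKM in tibialis and 129 FPKM in striatum. Sdhc, a membrane anchor, was lowest in every tissue, at 201 FPKM in heart and 31.3 FPKM in cortex.

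Complex III, which hands electrons to cytochrome c, summed to 4687 ± 322 FPKM in heart and 832 ± 89.0 FPKM in striatum. Uqcrh, the hinge protein, led in heart, liver, striatum and cortex, at 866, 278, 272 and 272 FPKM. Uqcrb led in tibialis at 661 FPKM. The small subunit gene Uqcr11 was the lowest in tibialis (134 FPKM), striatum (19.1 FPKM) and cortex (33.8 FPKM). Cycs, the somatic cytochrome c, stood at 85.7 ± 8.72 FPKM in heart and 86.8 ± 17.7 FPKM in tibialis, and at 14.2 ± 1.33 FPKM in liver, the lowest of the 5 tissues. Its CPM, in contrast, was lower in heart than in tibialis in the WT test (284.7 ± 42.1 CPM in heart and 414 ± 153 CPM in tibialis, -0.53 ± 0.17, edgeR adjusted p = 0.0075). The CPM are scaled with TMM factors. With library totals in their place, the median of all genes in this comparison moved from -0.00 to 0.43, so the difference between scales is not particular to Cycs.

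Complex V, the ATP synthase, summed highest of all complexes in heart, at 13460 ± 867 FPKM, and to 2568 ± 259 FPKM in striatum. Atp5b, the catalytic beta subunit, was its most abundant gene in all 5 tissues, at 2187, 1278, 569, 446 and 462 FPKM in heart, tibialis, liver, striatum and cortex. Atp5s, which encodes a coupling factor, was its lowest, between 3.82 FPKM in liver and 13.4 FPKM in cortex. The genes Atp5g1, Atp5g2 and Atp5g3 encode the same mature c-ring protein with different import peptides, and their proportions differed by tissue. Atp5g3 gave a median of 48.7% of the summed FPKM of the 3 genes in WT heart, 61.6% in tibialis, 55.7% in liver, 82.7% in striatum and 80.2% in cortex. Atp5g1 gave 42.4%, 31.9%, 29.4%, 12.3% and 15.2% in the same order. Its heart range (40.3% to 43.2%) lay above its striatal range (7.11% to 18.5%).

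Complex IV was split by tissue, since several of its subunits exist in a muscle form and a widely used form. Cox6a2, a muscle form, had a lowest, median and highest level of 861, 1243 and 1333 FPKM in WT heart, 99.9, 314 and 818 FPKM in tibialis, and 0, 0.0187 and 2.20 FPKM in liver. In WT striatum it had 0.474, 1.397 and 1.83 FPKM, and in cortex 0.588, 1.53 and 3.72 FPKM. Its counterpart Cox6a1 had medians of 73.4 FPKM in heart, 11.3 FPKM in tibialis, 238 FPKM in liver, 152 FPKM in striatum and 151 FPKM in cortex. Heart and tibialis were thus the only tissues in which the muscle form led, in every WT library.

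In the other pairs the muscle form was likewise high in heart and tibialis and low elsewhere, while the counterparts differed. Cox7a1 had WT medians of 1169 FPKM in heart, 428 FPKM in tibialis, 3.09 FPKM in liver, 0.701 FPKM in striatum and 1.30 FPKM in cortex. Its counterpart Cox7a2 stood at 337, 167, 148, 109 and 124 FPKM, highest in heart. Cox8b had 833 FPKM in heart, 356 FPKM in tibialis and 0.201, 0.320 and 0.278 FPKM in liver, striatum and cortex. Its counterpart Cox8a stood at 109, 18.5, 207, 204 and 262 FPKM, lower in heart than in liver.

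Expressed as a share of its pair, Cox6a2 had a WT median of 94.2% in heart and 95.3% in tibialis, Cox7a1 77.6% and 70.0%, and Cox8b 88.8% and 93.1%. In liver, striatum and cortex the muscle forms gave medians between 0.00765% (Cox6a2 in liver) and 1.82% (Cox7a1 in liver). The muscle form led in heart and tibialis in every library of every arm. In heart, Cox6a2 gave a median of 93.2% in Q175 vehicle mice, 93.4% at 30 mg/kg, 91.2% at 100 mg/kg and 94.2% in WT mice, with ranges that overlapped. The exceptions in cortex were the libraries with tibialis RNA, in which Cox6a2 reached 39.4%, Cox7a1 45% and Cox8b 32.6% in F4 of the 30 mg/kg arm.

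**Figure D2:**
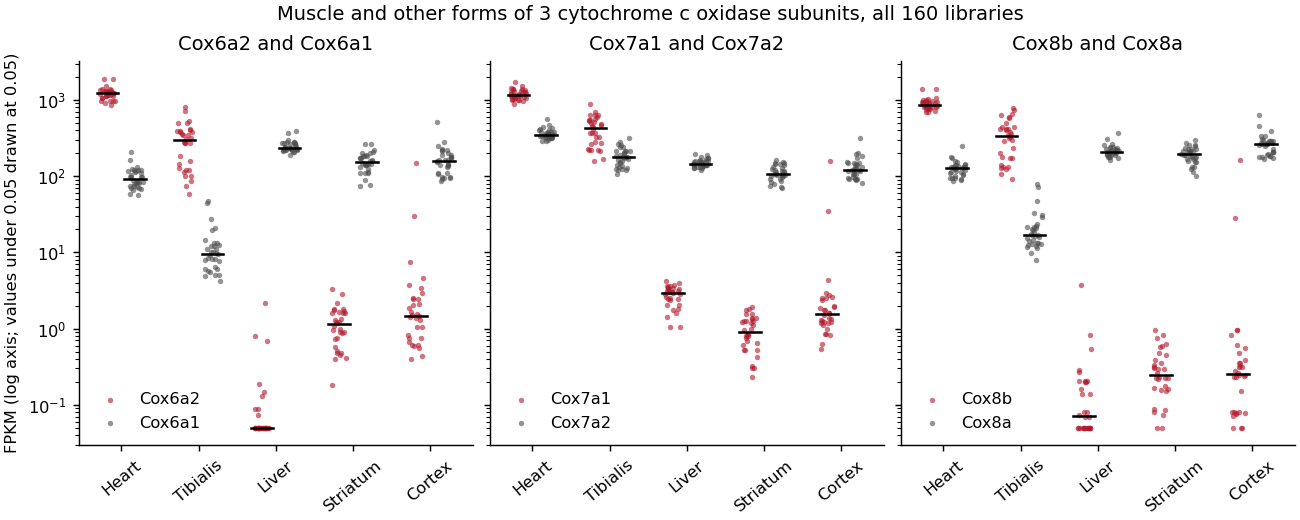
FPKM of the muscle form (red) and the widely used form (grey) of 3 complex IV subunits in all 160 libraries, on a log axis with values under 0.05 drawn at 0.05. Bars are medians over the 32 libraries of a tissue. The muscle form leads in heart and tibialis and lies far below its counterpart in liver and brain, apart from the cortex libraries with tibialis RNA.

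Other alternative complex IV genes were low throughout. Cox4i2, a form of subunit 4 known from lung, averaged 6.08 ± 0.591 FPKM in WT heart against 1294 ± 95.9 FPKM for Cox4i1. Cox6b2 and Cox7b2, known from testis, reached means of 3.50 FPKM (Cox6b2 in heart) and 0.796 FPKM (Cox7b2 in cortex). Cox7b2 was listed at 0 in all 8 WT liver libraries, and Cox8c, also a testis form, at 0 in every WT library outside striatum. Together with Ndufa11b, Ndufs6b and Cox6c2, Cox8c passed the filter on low counts in no tissue. Cox4i2, Cox6a2, Cox6b2, Cox7b2 and Cox8b passed it in some tissues only, so the number tested is 85 in heart, 84 in tibialis, 81 in liver, 85 in striatum and 85 in cortex.

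Tissue differences were tested in the WT mice, in a fit with the animal as a block that kept 18653 genes and 86 of the 90. All tests below are edgeR quasi-likelihood tests with Benjamini-Hochberg adjustment over all genes tested, and a gene is called at an adjusted p under 0.05. Fold changes are on the log2 scale of CPM, counts scaled to library size with TMM factors, with the standard error. A gene that passes the filter on low counts through 1 tissue alone had to differ, so counts are given over the genes that passed it in both tissues on their own. In heart over tibialis 49 of 84 such genes rose and 12 fell, which at 72.6% is near the 71.8% called among all genes kept in both (69% of all genes tested). Their median log2 difference was 0.41 and that of all genes kept in both 0.03. In heart over liver 75 of 81 rose and 2 fell (95.1%, against 73.4% of genes kept in both and 70.7% of all tested), with a median of 1.31 and -0.07 for all genes kept in both. In heart over cortex 82 of 84 rose and 1 fell (98.8%, against 82.4% and 83.1%), with medians of 2.94 and -0.02. In striatum over cortex 3 of 85 rose and 1 fell (4.71%, against 26.3% and 26.3%), with medians of -0.05 and -0.03.

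The split by complex differed between these comparisons. In heart over tibialis, 13 of 15 complex IV genes rose and 0 fell (median 0.63), and 5 of 9 complex III genes rose and 1 fell (median 0.86). Of the 38 complex I genes, 18 rose and 7 fell (median 0.24). In heart over cortex all 38 complex I genes rose (median 2.69), as did all 9 of complex III (median 3.86), all 4 of complex II (median 3.34) and all 17 of complex V (median 3.04). Complex IV was the exception, with 13 of 15 higher and 1 lower in heart (median 2.62). For the 13 protein-coding genes of mitochondrial DNA, the order of heart and tibialis differed between TMM-scaled CPM and the share of all counts. As a share of all counts, their WT median was 31.2% (29.5% to 34.1%) in heart and 28.8% (21.3% to 42.4%) in tibialis. The following counts are on the TMM scale. In heart over tibialis 9 of them fell and 0 rose (69.2% called, near the background of 69%; median -0.70), whereas all 13 rose in heart over liver (median 1.59) and in heart over cortex (median 1.96).

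In heart over tibialis the largest rises among these 84 genes were in Cox4i2 (2.17 ± 0.31), Cox6a1 (2.02 ± 0.28), Ndufb7 (2.02 ± 0.37), Uqcr11 (1.90 ± 0.42) and Ndufa4l2 (1.78 ± 0.32), with adjusted p between 2.29e-07 and 0.000181. Cox6b2 passed the filter in heart and not in tibialis, at 3.50 ± 0.401 FPKM in heart and 0.274 ± 0.188 FPKM in tibialis. Cox6a1 averaged 45.8 ± 7.35 CPM in heart and 11.7 ± 7.59 CPM in tibialis (SD, n = 8 each). Tibialis F3 and M4, the libraries with brain RNA, had 44.3 and 27.5 FPKM against 5.12 to 13.3 FPKM in the other 6, and without them its log2 difference was 2.67. The largest falls were in Atp5mpl (-0.78 ± 0.16), Uqcrb (-0.69 ± 0.19), Ndufs4 (-0.65 ± 0.14), Ndufb2 (-0.59 ± 0.15) and Ndufc1 (-0.56 ± 0.16). Ndufs4, an accessory subunit whose loss causes Leigh syndrome, averaged 170 ± 23.1 CPM in heart and 268 ± 79.1 CPM in tibialis. Of these 5, Atp5mpl alone kept its call with library totals (-0.29) and on the deposited FPKM (-0.28, limma on log2(FPKM + 0.1)). Uqcrb, Ndufs4, Ndufb2 and Ndufc1 lost it under both, at -0.17, -0.15, -0.10 and -0.07 with library totals, where all genes moved to 0.43, and at -0.15, -0.15, -0.06 and 0.01 on FPKM.

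Over all 86 genes tested, the heart over tibialis median was 0.42 with TMM factors and all genes at -0.00. With library totals both moved up together, to 0.85 for the set and 0.43 for all genes. In the 8 Q175 vehicle mice the same comparison gave a median of 0.11 with all genes at 0.09, and 50 of 86 above 0.

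In heart over liver the largest rise among the 81 genes kept in both was that of the muscle form Cox7a1 (8.41 ± 0.34), followed by Ndufa4l2 (2.50 ± 0.33), Cycs (2.33 ± 0.18), Ndufs1 (2.31 ± 0.14) and Ndufa5 (2.22 ± 0.14). Cox6a2, Cox8b, Cox4i2 and Cox6b2 passed the filter in heart and not in liver, so their levels are given and no fold change. Cox4i2 had 6.08 ± 0.591 FPKM in heart and 0.130 ± 0.114 FPKM in liver. WT liver F4, the library with tibialis RNA, held 2.20 FPKM of Cox6a2 and 3.75 FPKM of Cox8b, against at most 0.147 and 0.272 FPKM in the other 7. The only genes of the 81 called lower in heart were the widely used forms Cox6a1 (-2.06 ± 0.28) and Cox8a (-1.30 ± 0.24). In heart over cortex Cox7a1 (10.33 ± 0.37) and Cox6a2 (9.95 ± 0.75) led, followed by Uqcr11 (4.93 ± 0.47) and Ndufs7 (4.74 ± 0.43), an iron-sulphur subunit of complex I. Cox8a (-0.61 ± 0.24, edgeR adjusted p = 0.0202) was lower in heart than in cortex. Of heart and cortex, Cox8b passed the filter in heart alone, at 859 ± 74.1 FPKM in heart and 0.337 ± 0.292 FPKM in cortex. Cox7b2 passed it in cortex and not in heart, at 0.131 ± 0.0644 FPKM in heart and 0.796 ± 0.335 FPKM in cortex.

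In striatum over cortex the complex I genes Ndufb10 (0.47 ± 0.13, edgeR adjusted p = 0.00724), Ndufs3 (0.33 ± 0.11, adjusted p = 0.0217) and Ndufa1 (0.38 ± 0.13, adjusted p = 0.0261) rose, and Cox7a1 fell (-0.86 ± 0.32, adjusted p = 0.0428). Ndufb10 averaged 55.1 ± 7.79 CPM in striatum and 40.3 ± 11.8 CPM in cortex. Leaving out 1 WT animal at a time left between 1 and 4 genes called, with 1 call without the animal of striatum library M1, M3, M4 or F2 and 2 calls without that of F1. In Q175 vehicle mice 1 gene was called.

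Genes that control or accompany the respiratory chain also differed in level between tissues. Ppargc1a, a coactivator of mitochondrial biogenesis, averaged 23.9 ± 5.94 FPKM in WT heart and 11.1 ± 1.76 FPKM in WT cortex. Its means of 7.06 FPKM in tibialis and 2.37 FPKM in liver lay below that of striatum (9.58 FPKM), unlike the order of the set. Esrra, the oestrogen-related receptor Ppargc1a activates, averaged 37.0 ± 2.98 FPKM in heart and 3.46 ± 2.88 FPKM in cortex. Esrra had 9.74 FPKM in tibialis, 7.25 FPKM in liver and 2.91 FPKM in striatum. Nrf1 was higher in striatum (5.03 FPKM) and cortex (4.93 FPKM) than in heart (3.3 FPKM). Tfam was lowest in heart (17.0 FPKM) and highest in tibialis (25.1 FPKM). Slc25a4, the muscle ADP/ATP carrier, stood at 1816 ± 125 FPKM in heart, 1332 ± 257 FPKM in tibialis and 3.31 ± 2.26 FPKM in liver. It was also expressed in brain, at 190 ± 13.1 FPKM in striatum and 226 ± 37.8 FPKM in cortex. There the related carrier gene Slc25a5 had 160 and 125 FPKM. Ucp1, the uncoupling protein that marks brown fat, ranged over 0.187 to 167 FPKM in WT heart and at most 0.0878 FPKM in other WT tissues. Among 45 assembly factors 8 rose and 20 fell in heart over tibialis (62.2%, against 69% of all genes called), and 38 rose and 2 fell in heart over cortex (88.9%, against 83.1%). Among 15 regulators of biogenesis 7 rose and 4 fell in heart over tibialis (73.3%), and 13 rose and 1 fell in heart over cortex (93.3%).

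The genotype comparison, Q175 vehicle over WT vehicle, asks what the expanded Htt allele changes. No gene of the set was called in any tissue by edgeR, and DESeq2 called 2 in striatum, Cox6c and Atp5g1, and 0 in the other 4 tissues. Over all genes of striatum DESeq2 called 1374 of the 17229 tested. The background was 0.00626% of genes called in heart, 0% in tibialis, 0.00667% in liver, 5.76% in striatum and 0.0341% in cortex. At an unadjusted p under 0.05, 19 of the 85 in striatum lay above 0 and 0 below, which is 22.4% against a background of 21.5%. The counts were 3 of 85 in heart (1 above and 2 below; background 11.2%), 0 of 84 in tibialis (7.87%), 1 of 81 in liver (below; 6.75%) and 0 of 85 in cortex (3.21%).

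In striatum 74 of the 85 genes lay above 0, with a median log2 fold change of 0.16 and 0.02 over all genes. Ribosomal protein genes had a median of 0.16 and genes outside the set with an effective length under 1000 bases (short non-members) of 0.10 in the same comparison. The medians by complex were close to each other, at 0.18 (I), 0.17 (II), 0.15 (III), 0.19 (IV) and 0.15 (V). Cox6c, a small structural subunit of complex IV, had a lowest, median and highest level of 138, 167 and 216 CPM in Q175 vehicle striatum and 131, 146 and 165 CPM in WT striatum. Its log2 fold change was 0.26 ± 0.08 (edgeR adjusted p = 0.0507). The c-ring gene Atp5g1 had 43.7, 58.3 and 98.4 CPM in Q175 vehicle striatum and 31.1, 47.3 and 55.6 CPM in WT striatum, with 0.52 ± 0.17 (adjusted p = 0.0616). For both genes the groups overlapped, and the highest libraries were Q175. When single libraries were left out, Cox6c passed the threshold in 5 of 32 fits and Atp5g1 in 4 of 32.

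A complex II gene and cytochrome c had differences near 0 in striatum. Sdha, the flavoprotein of complex II, had 343, 362 and 377 CPM in Q175 vehicle mice and 342, 354 and 365 CPM in WT mice (0.03 ± 0.04, adjusted p = 0.579). Cycs had 80.9, 92.1 and 150 CPM in Q175 vehicle mice and 75.9, 100.1 and 123 CPM in WT mice (0.01 ± 0.13, adjusted p = 0.976). The groups overlapped for both.

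In liver 74 of 81 genes lay below 0, with a median of -0.12 against 0.00 for all genes. Short non-members had a median of -0.12 in the same comparison. Ndufa3, an accessory subunit of complex I, had 48.9, 54.7 and 63.0 CPM in Q175 vehicle liver and 53.3, 59.97 and 110 CPM in WT liver (-0.22 ± 0.11, adjusted p = 0.731). Ndufv3 had 47.2, 49.4 and 60.9 CPM in Q175 vehicle liver and 47.4, 57.1 and 96.1 CPM in WT liver (-0.20 ± 0.11, adjusted p = 0.737). The highest WT value of both is that of 1 female, F2. Without it the liver median was -0.02 (edgeR, 0 called).

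In heart the median was 0.02 against 0.01 for all genes, and 53 of 85 lay above 0. Ndufs1 had 481, 632 and 713 CPM in Q175 vehicle heart and 641, 683 and 724 CPM in WT heart (-0.19 ± 0.06, adjusted p = 0.244). Cox6a1 had 39.8, 51.5 and 79.2 CPM in Q175 vehicle heart and 31.95, 42.8 and 55.5 CPM in WT heart (0.44 ± 0.17, adjusted p = 0.313). Without Q175 vehicle F4, the highest library of its group, the heart median was -0.10, and without F2, the lowest, it was 0.08.

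In tibialis 66 of 84 lay above 0 with a median of 0.06 and 0.01 over all genes, and 0.02 without the libraries that carried brain RNA. Cox7a2l had 79.8, 92.2 and 117 CPM in Q175 vehicle tibialis and 77.8, 83.3 and 94.9 CPM in WT tibialis (0.16 ± 0.10, adjusted p = 0.869). Atp5b had 2254, 2427 and 2826 CPM in Q175 vehicle tibialis and 1956, 2263 and 2500 CPM in WT tibialis (0.14 ± 0.08, adjusted p = 0.879). The groups overlapped for both.

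In cortex 71 of 85 lay above 0 with a median of 0.06, which rested on Q175 vehicle library M3. Without that library the median was -0.20. Cox7b2 had 0.189, 0.305 and 0.663 CPM in Q175 vehicle cortex and 0.178, 0.411 and 0.781 CPM in WT cortex (-0.36 ± 0.28, adjusted p = 1.0). Cox6b2 had 0.362, 0.925 and 2.98 CPM in Q175 vehicle cortex and 0.3003, 0.811 and 1.39 CPM in WT cortex (0.39 ± 0.34, adjusted p = 1.0). Without M3 its log2 difference was -0.04.

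**Figure D3:**
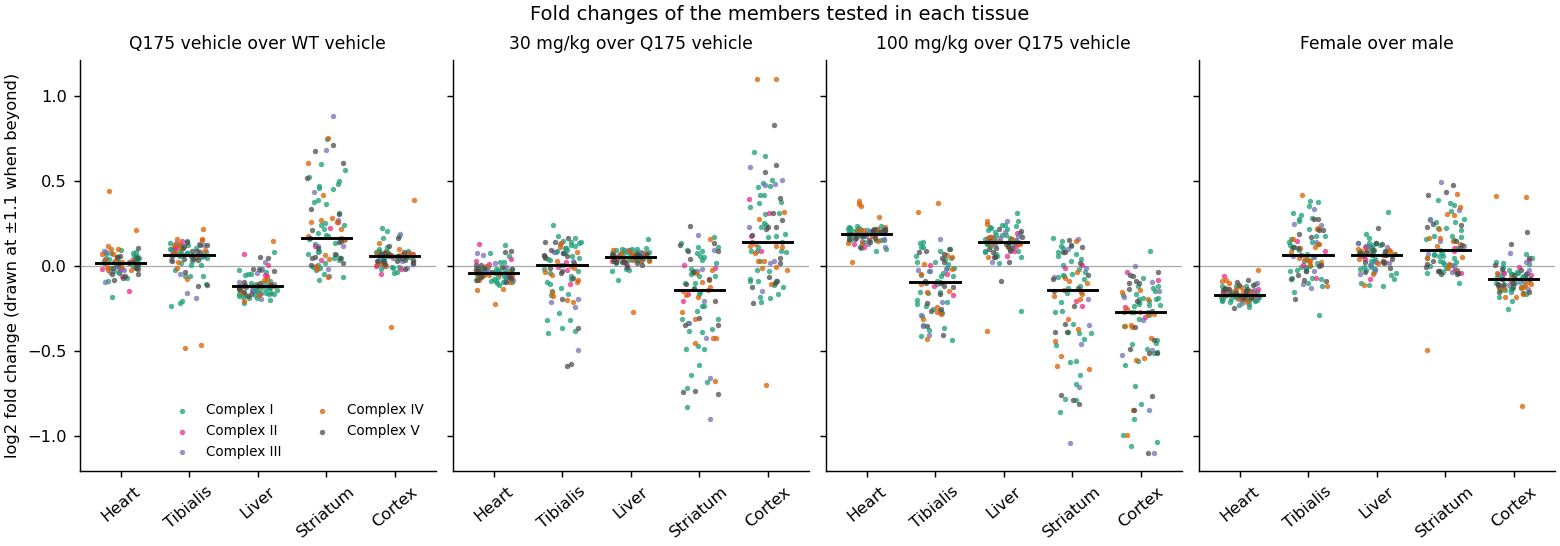
Log2 fold change of each gene of complexes I to V tested in a tissue, for Q175 vehicle over WT vehicle, 30 mg/kg over Q175 vehicle, 100 mg/kg over Q175 vehicle, and female over male. Bars are medians, colours are complexes, and values beyond 1.1 are drawn at 1.1. Fold changes use TMM factors. In heart every gene drawn lies above 0 at 100 mg/kg over vehicle and below 0 in females over males. With library totals, 84 of the 85 genes tested in heart lay above 0 at 100 mg/kg and 70 lay below 0 in females.

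The dose comparisons set Q175 mice on CHDI-00390576 against Q175 mice on vehicle. The 30 mg/kg, 100 mg/kg and genotype comparisons share the 8 Q175 vehicle libraries of a tissue, so a low or high vehicle group moves all of them.

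At 30 mg/kg 1 gene was called, Cox7a1 in cortex, and none in the other tissues by edgeR or DESeq2. The background was 0.00626% in heart, 0% in tibialis, 0% in liver, 0% in striatum and 0.318% in cortex. Cox7a1 had a lowest, median and highest level of 0.454, 0.758 and 59.9 CPM in cortex at 30 mg/kg, against 0.221, 0.533 and 1.52 CPM in Q175 vehicle cortex (3.78 ± 0.86, edgeR adjusted p = 0.0436). The highest values belong to libraries F4 and M3, which carried tibialis RNA. Without these libraries 0 genes of the set were called and the cortex median was -0.05, against 0.14 with them. DESeq2 called 0 with all libraries, and the call held in 7 of 32 fits that left out a single library.

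At an unadjusted p under 0.05, 16 of the 85 genes passed in striatum at 30 mg/kg, 1 above 0 and 15 below, which is 18.8% against a background of 16.7%. The counts were 1 of 85 in heart (above; background 8.11%), 0 of 84 in tibialis (1.18%), 0 of 81 in liver (3.82%) and 6 of 85 in cortex (5 above and 1 below; 16.1%). The median in striatum was -0.15 against 0.00 over all genes, and those of ribosomal protein genes and short non-members were -0.20 and -0.08. Uqcr10, a small complex III subunit, had 7.35, 13.5 and 28.01 CPM in striatum at 30 mg/kg against 13.3, 19.0 and 43.1 CPM in Q175 vehicle striatum (-0.66 ± 0.26, adjusted p = 0.288). Ndufs1 went the other way, with 180, 229 and 251 CPM at 30 mg/kg against 167, 194 and 222 CPM in Q175 vehicle mice (0.17 ± 0.07, adjusted p = 0.288). Both pairs of groups overlapped.

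The remaining medians at 30 mg/kg were -0.05 in heart, 0.00 in tibialis and 0.05 in liver, and those of all genes were -0.01, -0.01 and 0.00. Sdha in heart had 1256, 1352 and 1420 CPM at 30 mg/kg against 989, 1280 and 1372 CPM in Q175 vehicle mice (0.13 ± 0.06, adjusted p = 0.56). In tibialis Atp5g2 had 21.0, 39.2 and 55.2 CPM at 30 mg/kg against 19.2, 61.1 and 97.3 CPM in Q175 vehicle mice (-0.58 ± 0.42, adjusted p = 1.0). Without tibialis library F4 of the 30 mg/kg arm, the highest of its group, the tibialis median was -0.17. In liver Ndufb3, a membrane-arm subunit of complex I, had 32.6, 37.2 and 45.9 CPM at 30 mg/kg against 28.4, 33.5 and 40.5 CPM in Q175 vehicle mice (0.15 ± 0.11, adjusted p = 0.999).

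At 100 mg/kg 1 gene was called, Ndufa10 in liver, an accessory subunit of complex I. The background was 0.00626% in heart, 0% in tibialis, 6.85% in liver, 0% in striatum and 0% in cortex, and 1 of 81 in liver is 1.23%. DESeq2 called 1 in liver, where it called 1359 of all 15001 genes tested, and 0 elsewhere. At an unadjusted p under 0.05 the counts were 8 of 85 in heart (all above 0; background 10.5%), 0 of 84 in tibialis (5.24%), 13 of 81 in liver (all above 0, 16%; background 21.2%), 22 of 85 in striatum (1 above and 21 below, 25.9%; background 24.6%) and 6 of 85 in cortex (all below 0; background 3.47%).

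Ndufa10 had a lowest, median and highest level of 119, 130 and 143 CPM in liver at 100 mg/kg against 97.6, 106 and 134 CPM in Q175 vehicle liver (0.24 ± 0.07, edgeR adjusted p = 0.0411). Livers at 30 mg/kg had 99.0, 110 and 134 CPM and WT livers 95.1, 113 and 132 CPM. The 100 mg/kg group thus overlapped every other group. The call was lost in 11 of 32 fits that left out a single library, with an adjusted p between 0.0158 and 0.0917. The libraries were M1, M2 and F1 to F4 of the vehicle arm and M2, M3, F1, F3 and F4 of the 100 mg/kg arm. The call was also lost without the low-count filter, without the sex term and with a replicate block, at log2 fold changes of 0.25, 0.24 and 0.24 in that order. Without WT liver F2, 7 genes were called. Without F2 and vehicle library M3, both of which stood apart in their groups, 14 were called.

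In liver at 100 mg/kg 78 of 81 genes lay above 0, with a median of 0.14 and -0.02 over all genes and 0.07 for short non-members. The medians by complex were 0.15 (I), 0.10 (II), 0.17 (III), 0.14 (IV) and 0.10 (V). Ndufb3 had 35.7, 42.8 and 47.5 CPM at 100 mg/kg against 28.4, 33.5 and 40.5 CPM in Q175 vehicle liver (0.31 ± 0.11, adjusted p = 0.0783). Ndufs1 had 123, 140 and 152 CPM at 100 mg/kg against 104, 123 and 135 CPM in Q175 vehicle liver (0.19 ± 0.07, adjusted p = 0.107). Both overlapped between the groups.

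The lists around the chain held these calls in the same livers, to be read against the 6.85% of all genes called. Of the 13 mitochondrially encoded genes 4 rose and 0 fell (30.8%), among them mt-Nd1 (0.46 ± 0.10, edgeR adjusted p = 0.00508), mt-Nd2 (0.44 ± 0.10, adjusted p = 0.00678) and mt-Nd6 (0.52 ± 0.12, adjusted p = 0.0069), all core subunits of complex I. Of 45 assembly factors 4 rose and 0 fell (8.89%), among them Ndufaf7, a methyltransferase for complex I (0.36 ± 0.07, adjusted p = 0.00124), Cox10, which makes haem A precursor for complex IV (0.37 ± 0.10, adjusted p = 0.0197), and Timmdc1 (0.23 ± 0.06, adjusted p = 0.0161). Of 74 mitochondrial ribosome genes 7 rose and 0 fell (9.46%), led by Mrps2 (0.31 ± 0.06, adjusted p = 0.000743). The carrier gene Slc25a5 rose by 0.31 ± 0.09 (adjusted p = 0.0242).

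In heart at 100 mg/kg all 85 genes lay above 0, between 0.02 and 0.38, with a median of 0.19 against -0.01 for all genes. None was called by edgeR or DESeq2. The medians by complex were 0.19 (I), 0.16 (II), 0.18 (III), 0.20 (IV) and 0.19 (V). Sdhd, a membrane anchor of complex II, had 346, 417 and 508 CPM at 100 mg/kg against 279, 387 and 443 CPM in Q175 vehicle heart (0.18 ± 0.08, adjusted p = 0.38). Atp5b had 4154, 4425 and 4802 CPM at 100 mg/kg against 2947, 4188 and 4498 CPM in Q175 vehicle heart (0.16 ± 0.07, adjusted p = 0.394). The groups overlapped for both, and the lowest values are those of vehicle female F2.

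Short non-members in the same hearts had a median of 0.12, with 72.5% above 0, and 21 of 74 mitochondrial ribosome genes passed an unadjusted p under 0.05, all above 0 (28.4%, against 10.5% of all genes; 0 called). The median over the set was 0.13 without Q175 vehicle library F2 and 0.31 without Q175 vehicle library F4. Brown fat genes summed to a lowest, median and highest of 2078, 2517 and 3209 FPKM in heart at 100 mg/kg and 1772, 2294 and 3232 FPKM in Q175 vehicle heart. Ucp1 had 40.8, 123 and 178 FPKM at 100 mg/kg and 31.7, 65.0 and 235 FPKM in Q175 vehicle heart. Over all 32 heart libraries, log2 Ucp1 was set against the median deviation of the set from the tissue mean. Pearson r was -0.12 (Spearman's rho -0.34, and r -0.20 without the 2 libraries farthest in Ucp1). The part of the brown fat genes in the result was not tested.

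In striatum at 100 mg/kg 63 of 85 genes lay below 0, with a median of -0.14 and 0.00 over all genes, and -0.21 over ribosomal protein genes. Uqcr11 had 2.49, 5.65 and 16.4 CPM at 100 mg/kg against 6.51, 13.0 and 31.4 CPM in Q175 vehicle striatum (-1.04 ± 0.37, adjusted p = 0.199). Uqcr10 had 9.24, 12.5 and 22.9 CPM at 100 mg/kg against 13.3, 19.0 and 43.1 CPM in Q175 vehicle striatum (-0.71 ± 0.26, adjusted p = 0.199). In WT striatum these genes had 3.53, 8.35 and 13.0 CPM (Uqcr11) and 8.57, 15.9 and 19.5 CPM (Uqcr10), so their vehicle-treated Q175 libraries were the high ones. The mitochondrially encoded genes had medians of opposite sign, at 0.26 at 100 mg/kg, 0.28 at 30 mg/kg and -0.12 for genotype, with 0 called in each by edgeR and 4, 4 and 0 of 13 at an unadjusted p under 0.05. These are 30.8%, 30.8% and 0%, against 24.6%, 16.7% and 21.5% of all genes, so the count at 100 mg/kg is near the background.

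In cortex at 100 mg/kg 84 of 85 genes lay below 0, with a median of -0.27 and -0.01 over all genes, and -0.38 over ribosomal protein genes. Uqcr11 had 3.19, 7.25 and 11.1 CPM at 100 mg/kg against 3.28, 8.77 and 75.2 CPM in Q175 vehicle cortex (-1.28 ± 0.59, adjusted p = 0.811). Cox6b2 had 0.341, 0.590 and 0.797 CPM at 100 mg/kg against 0.362, 0.925 and 2.98 CPM in Q175 vehicle cortex (-0.85 ± 0.35, adjusted p = 0.811). The highest vehicle value is that of M3, without which the median was -0.07. In tibialis at 100 mg/kg the median was -0.10 and that of all genes 0.01. Ndufa9, an accessory subunit of complex I, had 186, 197 and 275 CPM at 100 mg/kg against 202, 235 and 267 CPM in Q175 vehicle tibialis (-0.16 ± 0.09, adjusted p = 0.95). The groups overlapped.

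Female and male mice were compared over the 4 arms of each tissue, with 16 animals each. In heart 2 genes fell in females, in liver 2 rose, and in tibialis, striatum and cortex none was called by edgeR or DESeq2. The background was 5.31% of genes called in heart, 2.09% in tibialis, 32.8% in liver, 0.221% in striatum and 0.0739% in cortex. At an unadjusted p under 0.05 the counts were 41 of 85 in heart (background 23.2%), 1 of 84 in tibialis (12%), 6 of 81 in liver (42.8%), 3 of 85 in striatum (11.6%) and 2 of 85 in cortex (5.18%).

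In heart all 85 genes lay below 0, with a median of -0.17 against 0.02 over all genes and -0.06 for short non-members. The 41 that reached an unadjusted p under 0.05 all lay below 0. Ndufa10 had a lowest, median and highest level of 274, 369 and 472 CPM in female hearts and 383, 428 and 493 CPM in male hearts (-0.20 ± 0.05, edgeR adjusted p = 0.0276). Uqcrc2, a core protein of complex III, had 602, 797 and 916 CPM in female hearts and 812, 887 and 966 CPM in male hearts (-0.15 ± 0.05, adjusted p = 0.048). The sexes overlapped for both. The number called depended on single libraries: it was 64 without Q175 vehicle female F4, all of them lower in females, 0 without WT male M4, and 1 in 22 of the 32 fits. Without F4 the number called over all genes also rose, to 2660 from 849 with every library. DESeq2 called 6 of the 85, all lower in females, among them Ndufa10 and Uqcrc2. Over all genes it called 1339 of the 15979 tested.

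The size also differed with the scaling and by arm. With library totals in place of TMM factors 0 were called, and the median was -0.04 with all genes at 0.15, so that the distance to all genes (-0.19 with TMM factors and -0.19 without) was kept. The shared direction and the unadjusted count were not kept. With library totals 70 genes of the set lay below 0 and 15 above, and 1.18% reached an unadjusted p under 0.05, against 48.2% with TMM factors. Within arms, the mean level of the genes in females minus males was -0.01 in Q175 vehicle mice, -0.30 at 30 mg/kg, -0.32 at 100 mg/kg and -0.05 in WT mice, on the log2 CPM scale with 4 animals of each sex. The females and males of the 30 mg/kg arm did not overlap (females -0.27 to -0.13, males 0.01 to 0.25), and those of the other arms did. Whether the sex difference depends on the arm was not tested. Skeletal muscle markers summed to 7192, 8376 and 11420 FPKM in female hearts and 8135, 9317 and 10280 FPKM in male hearts, and brown fat genes to 1772, 2140 and 3232 FPKM in females and 1874, 2285 and 3209 FPKM in males. Their part in the result was not tested.

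The lists around the chain are to be read against the 5.31% of all genes called in heart. Of 13 mitochondrially encoded genes 5 fell and 0 rose in females (38.5%), among them mt-Cytb of complex III (-0.30 ± 0.08, edgeR adjusted p = 0.0194), mt-Nd4 (-0.29 ± 0.07, adjusted p = 0.0204) and mt-Nd1 (-0.28 ± 0.08, adjusted p = 0.0305). Of 45 assembly factors 7 fell and 0 rose (15.6%), led by Sdhaf2, which flavinylates Sdha (-0.19 ± 0.04, adjusted p = 0.00325), Uqcc1 (-0.19 ± 0.05, adjusted p = 0.0113) and Ttc19 (-0.18 ± 0.05, adjusted p = 0.0153). Of 15 regulators 2 fell (13.3%), the mitochondrial transcription factors Tfam (-0.20 ± 0.04, adjusted p = 0.007) and Tfb2m (-0.13 ± 0.04, adjusted p = 0.0471). Ppargc1a lay above 0 (0.37 ± 0.12, adjusted p = 0.0581). Of 74 mitochondrial ribosome genes 6 fell and 0 rose (8.11%). The calls depended on the scaling. With library totals in place of TMM factors 3526 of the 15979 genes tested were called, 95.3% of them higher in females. In that fit 5 mitochondrially encoded genes and 1 assembly factor were lower in females, 5 regulators were higher, and 1 mitochondrial ribosome gene was higher. The list medians were then -0.09, -0.02, 0.17 and -0.03 in that order, with all genes at 0.15.

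In liver, Ndufa7, a complex I accessory subunit, had 57.7, 66.0 and 131 CPM in females and 46.7, 59.0 and 70.9 CPM in males (0.32 ± 0.09, edgeR adjusted p = 0.00825). Atp5g1 had 124, 138 and 240 CPM in females and 102, 125 and 156 CPM in males (0.22 ± 0.08, adjusted p = 0.03). The sexes overlapped, and the highest female values again include WT F2. Ndufa7 was called in all 32 fits that left out a single library and Atp5g1 in 30 of 32. The 2 called are 2.47% of the 81 tested, against the background of 32.8%. The median was 0.06 against 0.01 for all genes. Among 45 assembly factors 4 were higher in females and 11 lower, which at 33.3% is near the 32.8% of all genes called. They include Ndufaf4 (-0.50 ± 0.07, adjusted p = 2.58e-06), Cox19 (-0.43 ± 0.07, adjusted p = 9.17e-06) and Cox11 (-0.30 ± 0.05, adjusted p = 2.57e-05). Of the 13 mitochondrially encoded genes 4 fell (30.8%, also near that share), led by mt-Nd5 (-0.32 ± 0.07, adjusted p = 0.0012). Ucp2 rose by 0.78 ± 0.12 (adjusted p = 1.15e-05) and Slc25a4 by 0.45 ± 0.15 (adjusted p = 0.0221).

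In cortex the testis form Cox7b2 had 0.0322, 0.225 and 0.443 CPM in females and 0.124, 0.375 and 0.781 CPM in males (-0.83 ± 0.20, edgeR adjusted p = 0.255). In striatum it had 0.163, 0.344 and 0.550 CPM in females and 0.314, 0.404 and 0.752 CPM in males (-0.50 ± 0.18, adjusted p = 0.271). In tibialis Ndufs4 had 114, 170 and 310 CPM in females and 148, 211 and 294 CPM in males (-0.29 ± 0.12, adjusted p = 0.31). The sexes overlapped for each.

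Outside liver at 100 mg/kg and the sex comparisons, few genes around the chain were called. In the genotype comparison of striatum, the complex IV assembly factor Cox19 rose by 0.33 ± 0.10 (edgeR adjusted p = 0.0492). It was the only one called of 45 assembly factors (2.22%, against 5.76% of all genes called). In the same comparison 0 of 15 regulators and 0 of 13 mitochondrially encoded genes were called. Among the assembly factors of striatum 11 lay above 0 and 2 below at an unadjusted p under 0.05 (28.9%, against 21.5% of all genes).

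The genes of the set varied together between libraries. For each library their level was summarised as the median deviation from the tissue mean in log2 CPM. Across the 32 libraries of a tissue, complex I and complex V followed each other with a Pearson r of 0.99 in heart, 0.99 in tibialis, 0.98 in liver, 0.97 in striatum and 0.99 in cortex (Spearman's rho 0.98, 0.96, 0.97, 0.94 and 0.98). Without the 2 libraries farthest from the median, r was between 0.95 and 0.99. Libraries share depth, scaling and RNA quality, so these values are given as a description.

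**Figure D4:**
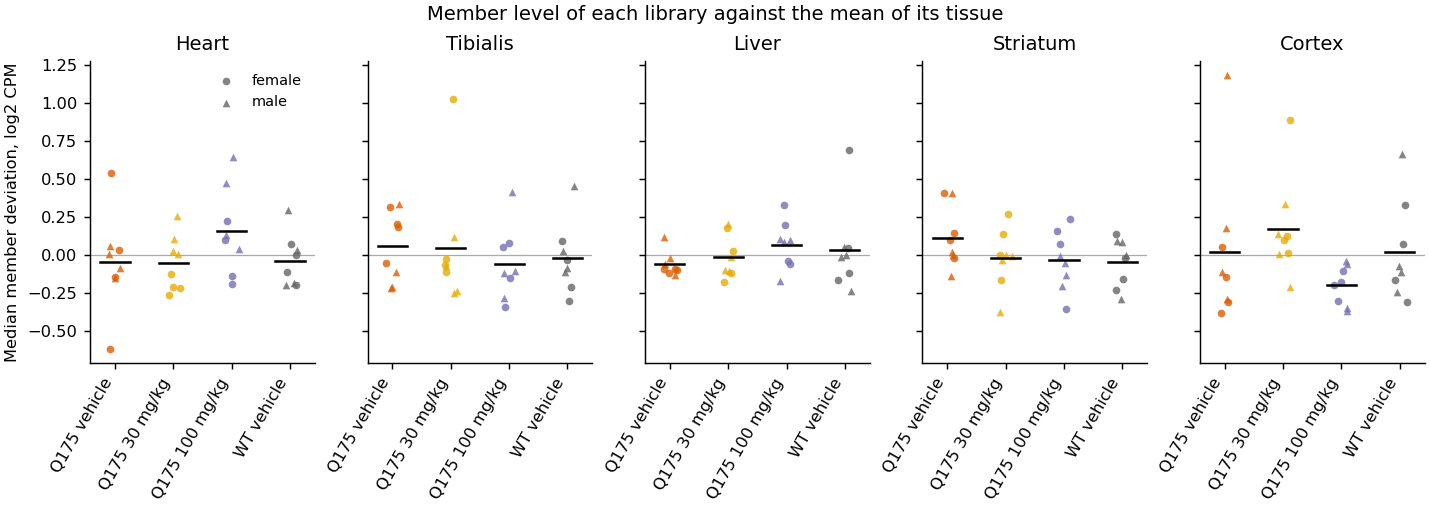
Median deviation of the genes of the set from the tissue mean in each library, in log2 CPM, by arm and tissue. Circles are females, triangles are males and bars are means of 8 libraries. Single libraries stand apart, such as tibialis F4 at 30 mg/kg (1.02), WT liver F2 (0.69) and Q175 vehicle cortex M3 (1.18).

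The same level followed that of the cytosolic ribosomal protein genes, which are also short and abundant. In striatum r was 0.97 (rho 0.96, and 0.97 without the 2 farthest libraries) and in cortex 0.98 (rho 0.99, and 0.97 without them). It was 0.76 in heart (rho 0.73, and 0.61), 0.89 in tibialis (rho 0.79, and 0.83) and 0.73 in liver (rho 0.47, and 0.36). With all other genes of an effective length under 1000 bases, r was 0.91 in heart, 0.95 in tibialis, 0.91 in liver, 0.96 in striatum and 0.97 in cortex (rho 0.91, 0.86, 0.80, 0.95 and 0.98; without the 2 farthest 0.87, 0.91, 0.77, 0.95 and 0.96). The 90 genes had a median effective length of 682 bases, and 66 of them were under 1000 bases.

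**Figure D5:**
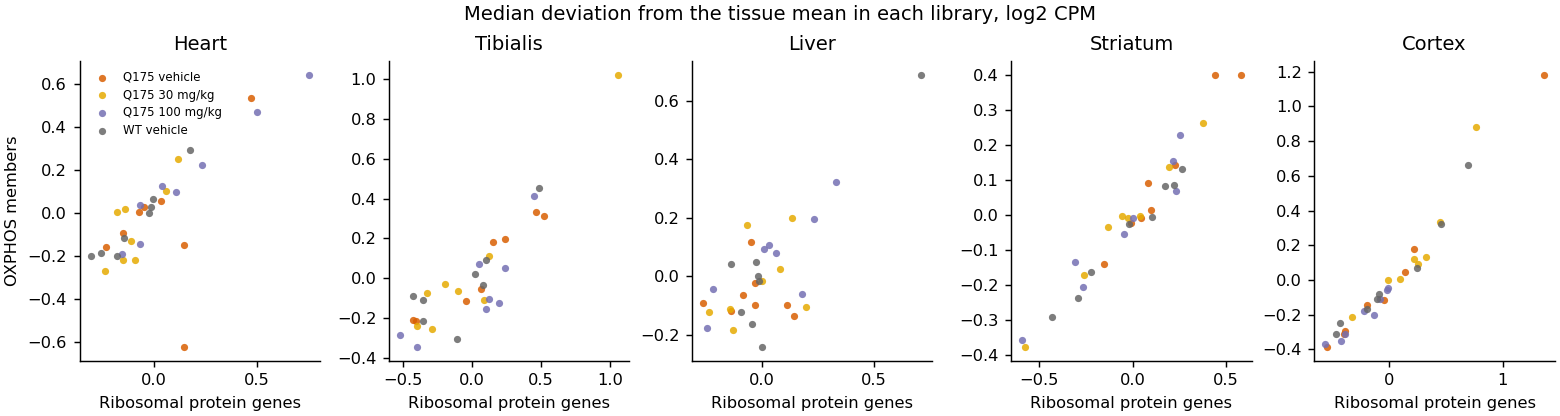
Median deviation of the genes of the set against that of cytosolic ribosomal protein genes in each library, both in log2 CPM, by tissue and arm (colours). In striatum and cortex the libraries lie near a line (r 0.97 and 0.98). In heart, Q175 vehicle F2 lies lowest on the vertical axis, at -0.62.

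The mitochondrially encoded genes did not follow the nuclear ones in every tissue. Their r with the nuclear set was 0.80 in heart (rho 0.65, and 0.71 without the 2 farthest libraries) and 0.74 in liver (rho 0.72, and 0.67). It was -0.72 in striatum (rho -0.69, and -0.63), -0.20 in tibialis (rho -0.30, and -0.13) and -0.28 in cortex (rho -0.59, and -0.28). Within arms the values were 0.81 in heart, 0.74 in liver, -0.71 in striatum, -0.21 in tibialis and -0.20 in cortex.

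The spread between libraries of a group sets what could be seen. The median SD of the genes of the set within the arms of a tissue, on the log2 CPM scale, was 0.26 in heart, 0.38 in tibialis, 0.20 in liver, 0.24 in striatum and 0.37 in cortex, and that of all genes was 0.24, 0.41, 0.28, 0.27 and 0.32. Reads that fit both a gene of the set and a near-identical copy elsewhere, such as a processed pseudogene, could be split by the counting, so the level of such genes is uncertain.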

How the data were processed

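The authors deposited 2 tables over 43432 Ensembl genes for the 160 libraries, one of estimated counts (26.3% of the values above 0 were not whole numbers within 0.001) and one of FPKM. CASAVA 1.8.2 is named per the submitters' processing notes. The aligner, genome build, annotation and counting method were not given in the sources used here. After division by library totals, the ratio of count to FPKM was a median of 12.7% higher in the highest than in the lowest library, over 6390 genes with more than 100 counts in every library, so the deposited FPKM and estimated counts are not rescalings of each other. Of 75 members checked, 12 had a spread over 50%, so for these a level in FPKM and a difference in CPM can disagree. Symbols came from a reference table that matched 42462 gene IDs and left 970 unmatched.

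Estimated counts were rounded and fitted per tissue on all 32 libraries with arm and sex (edgeR 4.0.16 in R 4.3.3, filterByExpr, TMM, robust quasi-likelihood F test), with p-values adjusted over all genes tested. Tissues were compared in WT mice with the animal as block, and genes were counted where they passed the low-count filter in both tissues, a restriction added after seeing the data. Levels between genes used FPKM. CPM values use TMM-scaled totals, with 0.1 added on the log2 scale for the level per library. Alternatives used DESeq2 1.42.0, limma 3.58.1 on log2(FPKM + 0.1 or 1), library totals, no low-count filter, no sex term, a replicate block, only the arms compared, and leaving out libraries. Tables were made with Python 3.11.15, pandas 2.3.3 and numpy 2.4.6. The fits were tested on simulated data.

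Genes named are the alternative forms, those called (at most 10, otherwise the 5 largest rises and falls), the 2 with the smallest p where none was called, and the highest and lowest of each complex, and further genes were chosen after their values were seen. The members and lists were chosen with earlier results of these data known. A test of the genotype effect in striatum against other tissues was to be used only where a gene of the set was called for genotype, and is not reported. Some values that the naming rule picked are not reported here.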

Additional observations from a re-analysis of the deposited data

Results flagged for a closer look

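In 17 of 80 group values, 1 library lay farther from the other 7 than Dixon's 95% critical value allows. That value gives about 1 in 20 by chance for independent values. The 80 values share libraries and are not independent, so 17 cannot be set against that rate. The 80 are the level of the set and the FPKM of Cox6a2, Cox7a1 and Cox8b in 20 groups. Levels of the set are median deviations in log2 CPM.

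The level of the set stood apart in tibialis F4 at 30 mg/kg (1.023), Q175 vehicle liver M3 (0.117), WT liver F2 (0.688) and Q175 vehicle cortex M3 (1.182). The same tibialis library had 719.4 FPKM of Cox6a2, 896.7 FPKM of Cox7a1 and 791.2 FPKM of Cox8b, and the same cortex library 7.564 FPKM of Cox6a2.

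In heart, Cox6a2 stood at 1912 FPKM and Cox8b at 1375 FPKM in Q175 vehicle F4, and Cox6a2 at 1531 FPKM in M4 at 30 mg/kg and 1889 FPKM in M4 at 100 mg/kg.

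Muscle forms stood apart in libraries that held tibialis RNA. Cortex F4 at 30 mg/kg had 148.1 FPKM of Cox6a2, 160.5 FPKM of Cox7a1 and 164.0 FPKM of Cox8b. WT liver F4 had 2.197 FPKM of Cox6a2 and 3.753 FPKM of Cox8b.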

How the results depend on the processing

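Under the alternatives other than leaving out single libraries, 165 of 193 counts of calls stayed within 1.5 times and 188 of 193 medians kept within the spread. Of the values of named genes 448 kept their call and direction, 26 lost the threshold, 7 passed it and 2 turned. Depth and spread limit what 8 libraries a group can show, and a missed threshold does not show that levels were alike.

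With library totals in place of TMM factors, the number called was 0 for sex in heart (2 with TMM), 9 for 100 mg/kg in liver (1), 13 for sex in liver (2) and 2 for genotype in striatum (0). Over all genes the numbers called were 3526 (849 with TMM), 1032 (1028), 4252 (4913) and 1047 (992) in the same order. Over the 86 genes tested, the median was 0.845 in heart over tibialis (0.416) and 2.242 in heart over cortex (2.939), where the medians of all genes were 0.43 and -0.93 (-0.00 and -0.23 with TMM). The share of all calls that were higher was 95.3% for heart sex (38.4% with TMM), 60.1% for striatum genotype (45.1%), 71.9% for liver at 100 mg/kg (60%) and 69.5% for liver sex (52%). It was 68.9% for heart over tibialis (50.7%) and 29.6% for heart over cortex (44.9%).

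With DESeq2, 6 were called for sex in heart, 2 for genotype in striatum and 0 for 30 mg/kg in cortex (1 in edgeR). Over all genes DESeq2 called 1339, 1374 and 0 in the same order. Limma on log2(FPKM + 0.1) and on log2(FPKM + 1) called 8 and 9 in liver at 100 mg/kg, 1 and 1 for genotype in striatum and 0 and 0 for 30 mg/kg in cortex. The number of all genes called by limma is not given. With 0.1 added, its medians were 0.847 in heart over tibialis and 2.249 in heart over cortex, and Ndufc1 in heart over tibialis turned to 0.011 (-0.555 in edgeR).

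In liver at 100 mg/kg, 0 were called without the low-count filter, 0 without the sex term, 5 with only the 2 arms and 14 without the libraries standing apart. In cortex at 30 mg/kg, 2 were called without the sex term, 0 with only the 2 arms, 0 without libraries holding RNA of another tissue, 0 with the form of column name as a term and 2 without the libraries standing apart. Without the sex term, or with the form of column name, 1 was called for genotype in striatum. Without libraries standing apart, 5 were called for sex in liver, and Cox6b2 in cortex genotype turned to -0.036 (0.386 with them). In Q175 vehicle mice heart over tibialis had a median of 0.11, and 1 gene was called in striatum over cortex (4 in WT). The form of column name and the libraries standing apart were chosen after seeing the data. The cause was not tested for any of these, and the number of all genes called in each fit is not given.

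Same-numbered libraries of the Q175 vehicle and WT arms did not deviate together in every pair. Correlations passed 0.1 in 2 of 8 pairs in heart, 3 in tibialis, 2 in liver, 2 in striatum and 5 in cortex. Such correlations cannot exclude a pairing. All 32 animals had more than 1 replicate name across their tissues, so the number does not follow the animal. With a replicate block, 0 were called in liver at 100 mg/kg and 0 in cortex at 30 mg/kg (1 each without it), and the other counts for genotype and dose did not move beyond 1.5 times. Without the animal block in the tissue comparisons, 60 were called in heart over tibialis and 3 in striatum over cortex.

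Leaving out single libraries gave between 0 and 64 called for sex in heart, 0 and 7 in liver at 100 mg/kg, 1 and 6 for sex in liver, 0 and 1 for genotype in striatum, 0 and 2 in cortex at 30 mg/kg and 1 and 4 in striatum over cortex. The heart fit with 64 called 2660 of all genes, against 849 with every library. Cox6b2 in cortex genotype ranged between -0.036 (without Q175 vehicle M3) and 0.539.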
